A study of Rattus norvegicus with 24 samples.

Results

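The proteolytic system of the skin was described by 36 genes of metalloproteases, plasminogen activators, serpins, tissue inhibitors of metalloproteinases (TIMPs) and cystatins. They were chosen by their gene symbols. Probes of the array were taken whose gene name begins with Mmp, Timp, Adam, Serpin, Plau, Spink or Cst, or is *Plat*, unless the gene belonged to the lists of major histocompatibility complex and natural killer complex genes, which removed 0 probes. The 36 genes are measured by 41 probes, out of 7263 gene names and 8453 probes on the array. By family name, matrix metalloproteinases (7 genes), ADAMs (9) and ADAMTS (4) are counted as the metalloproteases. Serpins (6), TIMPs (3), cystatins (3) and the Kazal-type inhibitor *Spink5* are counted as the inhibitors. *Plau*, *Plat* and *Plaur* are the plasminogen activators and the urokinase receptor. The activity of each single product was not considered in this grouping.

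Samples were skin explants from the paws of 12 male BN rats aged 15 weeks. From each rat, 1 explant had been cultured for 3 days with syngeneic BN lymphocytes and 1 with allogeneic PVG lymphocytes, and both kinds of lymphocytes came from a mixed lymphocyte reaction of 7 days with irradiated BN splenocytes. Both groups thus received added lymphocytes, the controls differed in the strain of these cells, and explants in medium only were not analysed here. The 2 RNA samples of a rat were hybridized together on 2 two-color arrays with exchanged dyes, so that 24 arrays on 3 slides give 12 values per gene. RNA was prepared from whole explants, and in such bulk samples fewer cells of a type and less RNA per cell cannot be told apart.

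Proteolysis in the skin works in cascades. Urokinase (*Plau*) and tissue plasminogen activator (*Plat*) turn plasminogen into plasmin, the urokinase receptor (*Plaur*) holds urokinase at the cell surface, and plasmin cleaves fibrin and activates matrix metalloproteinases. Serpins trap serine proteases by forming a stable complex with them, TIMPs block the active site of metalloproteinases, and cystatins inhibit cysteine proteases such as the cathepsins. ADAMs shed receptors and ligands from the cell surface, and ADAMTS enzymes are secreted proteases that act mainly on the extracellular matrix. The system is known in skin for its part in wound repair and in the passage of leukocytes through tissue.

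The results turn mainly on the probes for the urokinase system, *Serpine2* and *Timp1*, and the first 30 of their 60 bases are given here to identify what was measured. *Plau* is shown with both of its probes, which do not overlap. They are written in lower case without a marked part, and positions are those of the array's annotation on the rat assembly rn3.
Serpine2 probe, chr9:79274934-79274993, minus strand: taaaataaagttggaaaactaacgtctcgc
Timp1 probe, chrX:12548256-12549259, minus strand: ggggtgtgcacagtgtttccctgttcagcc
Plau probe 1, chr15:3680711-3680770, minus strand: gtctacacgagggtctcatacttcctgaac
Plau probe 2, chr15:3682076-3682135, minus strand: aagaacctgaaaatgtcagttgtaaagatt
Plaur probe, chr1:79791146-79791205, plus strand: ctacagaacactgtattgaagtggtgacgc
The *Timp1* probe covers 1004 bases of the assembly with 60 bases of its own, and the other probes shown cover 60. Whether a probe lies in coding sequence was not determined, since no annotated genome of that assembly was used here.

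Values are log2 ratios of the sample labelled allogeneic over the sample labelled syngeneic of the same rat, given as mean ± SD over 12 rats. The direction follows the dyes in the sample labels and is opposite to that of the study's tables and of its PCR measurements on some of the same samples. Whether the labels of the channels were exchanged could not be settled from the files. Rose, fell, higher and lower therefore refer to the samples as labelled, and all signs have to be turned for a reading in the study's direction, where *Plaur* would rise and the 9 members found higher would fall. The macrophage marker *Aif1*, named here because it shows this difference, had a log2 ratio of -1.27 ± 0.50 (adjusted p = 0.000102, limma) and was below 0 in 12 of 12 rats. Each gene was tested with limma against 0, a gene with several probes by their mean, and p-values were adjusted by the Benjamini-Hochberg method over all 7263 gene names. An adjusted p below 0.05 is called a change.

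Of the 36 genes, 10 changed (27.8%), 9 of them higher and 1 lower in the allogeneic samples, where 16.3% of all genes on the array changed, 8.66% higher and 7.6% lower. At an unadjusted p below 0.05 (limma), 12 of the 36 genes differed, where 2103 of all 7263 did. The median log2 ratio was 0.05 over the 36 genes and 0.01 over all genes. By single probes, 12 of 41 changed, 11 higher and 1 lower, against 17.3% of all probes. Among the inhibitors 5 of 13 were higher and 0 lower, with a median of 0.13, and among the metalloproteases 3 of 20 were higher and 0 lower, with a median of 0.02. Of the inhibitor families, *Serpine2*, *Serpinf1*, *Timp1*, *Timp2* and *Cstb* rose, of which *Serpinf1* encodes a serpin that inhibits no protease. The proteases that rose were *Plau*, *Mmp16*, *Adam33* and *Adam8*, and the 1 gene that fell was *Plaur*.

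How bright a probe was bears on these counts. For 25 of the 36 genes every probe stood well above background in both channels of each of the 24 arrays, and these genes include all 10 that changed. Among all genes on the array with any such probe, a wider definition, 19.5% changed. In contrast, 7 genes (*Serpini2*, *Mmp20*, *Mmp21*, *Adam2*, *Adam11*, *Adam28* and *Serpinb9e*) were well above background on at most 12 arrays in both channels, and their log2 ratios lay between -0.04 and 0.04. For these genes no change was detectable at this signal.

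Of the rats, 2 stood apart. The profile of rat 8 correlated least with the mean of the others over all probes (r = 0.22, other rats 0.53 to 0.83), and its log ratios were the most spread (SD 0.71, other rats 0.21 to 0.38). In rat 10 the array with the allogeneic sample in Cy5 was far brighter than the others. Its median intensities were 6668 in Cy3 and 25640 in Cy5. The 2 arrays of rat 10 correlated with r = 0.13, the lowest value, but rats 3, 6 and 2 were also low (0.20, 0.26 and 0.30). The 2 arrays of rat 8 had the highest r, 0.94. Without these 2 rats, 11 of the 36 genes and 1777 of all 7263 changed, and the 11 included all 10 found with 12 rats. The 2 dye orientations also differed: over all genes, 51.9% had a different ratio in each (adjusted p below 0.05, limma), and 15 of the 36 did.

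**Figure D1:**
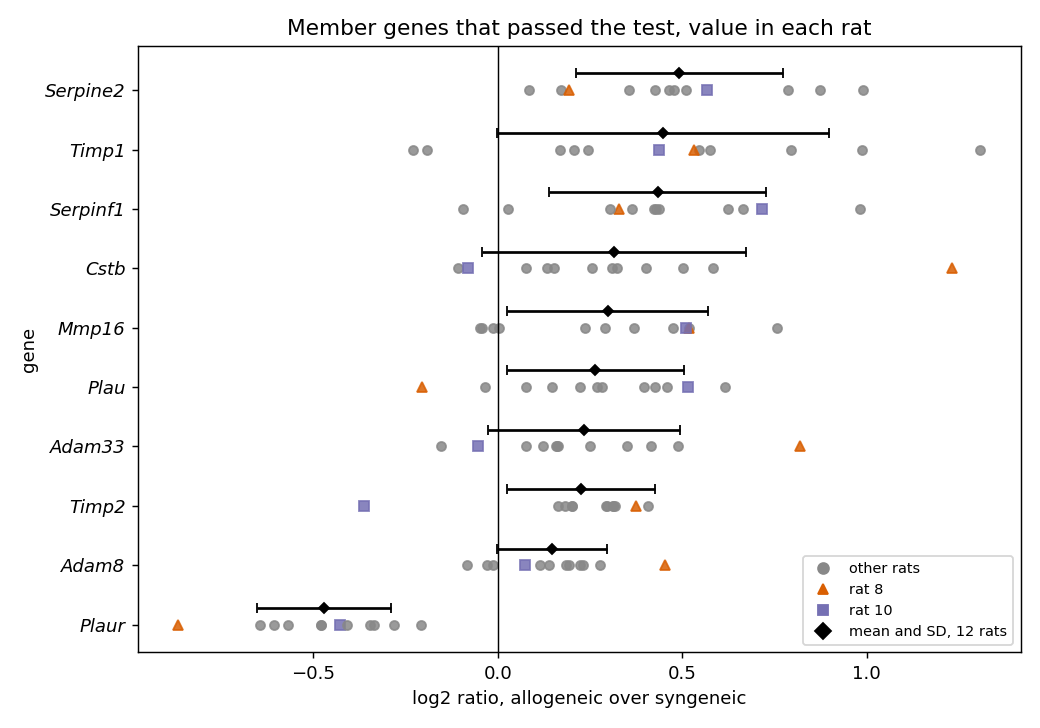
Log2 ratio of the allogeneic over the syngeneic sample (x axis) for the 10 genes that changed (y axis), with 1 point per rat and the mean with its SD over 12 rats as a diamond above the points. *Plaur* lay below 0 and *Serpine2* above 0 in all 12 rats, while rat 8 was the highest for *Cstb*, *Adam33* and *Adam8* and the lowest for *Plau* and *Plaur*.

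The plasminogen activator system split. Urokinase rose and its receptor fell. The ratio of *Plau* had its lowest value at -0.21 (rat 8), its median at 0.28 and its highest value at 0.62 (rat 4), and it was above 0 in 10 of 12 rats. On the log2 intensity scale its level ran from 9.38 over a median of 10.11 to 10.68 in the allogeneic samples and from 8.87 over 10.03 to 10.43 in the syngeneic samples, so that the groups overlapped and the difference lay within rats. The mean log2 ratio of *Plau* was 0.26 ± 0.24, a 1.20-fold ratio (adjusted p = 0.0151, limma). Its 2 probes, which target different stretches, gave 0.29 ± 0.23 (adjusted p = 0.00714) and 0.24 ± 0.26 (adjusted p = 0.0318).

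For the receptor gene *Plaur*, the log2 ratio ran from -0.87 in rat 8 over a median of -0.45 to -0.21 in rat 11. It was below 0 in 12 of 12 rats. The *Plaur* level ran from 8.71 over 9.64 to 9.93 in the allogeneic samples and from 9.13 over 10.09 to 10.79 in the syngeneic samples, and these ranges overlapped although every rat fell. The mean was -0.47 ± 0.18, so that the syngeneic samples were 1.39-fold higher (adjusted p = 0.000102, limma). This was the smallest p-value of the 36 genes.

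Tissue plasminogen activator gave no call. Ratios of *Plat* ran from -0.28 over 0.12 to 0.84, above 0 in 7 of 12 rats, and the mean of 0.12 ± 0.32 had a 95% interval from -0.07 to 0.31 (adjusted p = 0.400, limma). The 2 dye orientations disagreed for this gene. The mean was -0.08 with the allogeneic sample in Cy5 and 0.32 with it in Cy3, which differed with an adjusted p of 3.53e-05 (limma). *Plau* had 0.15 and 0.38 in the same orientations (adjusted p of the difference = 0.00101, limma), on the same side of 0, and its call was lost when the Cy5 orientation was used alone (adjusted p = 0.130, limma). *Plaur*, with -0.42 and -0.52, held its call in either orientation.

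**Figure D2:**
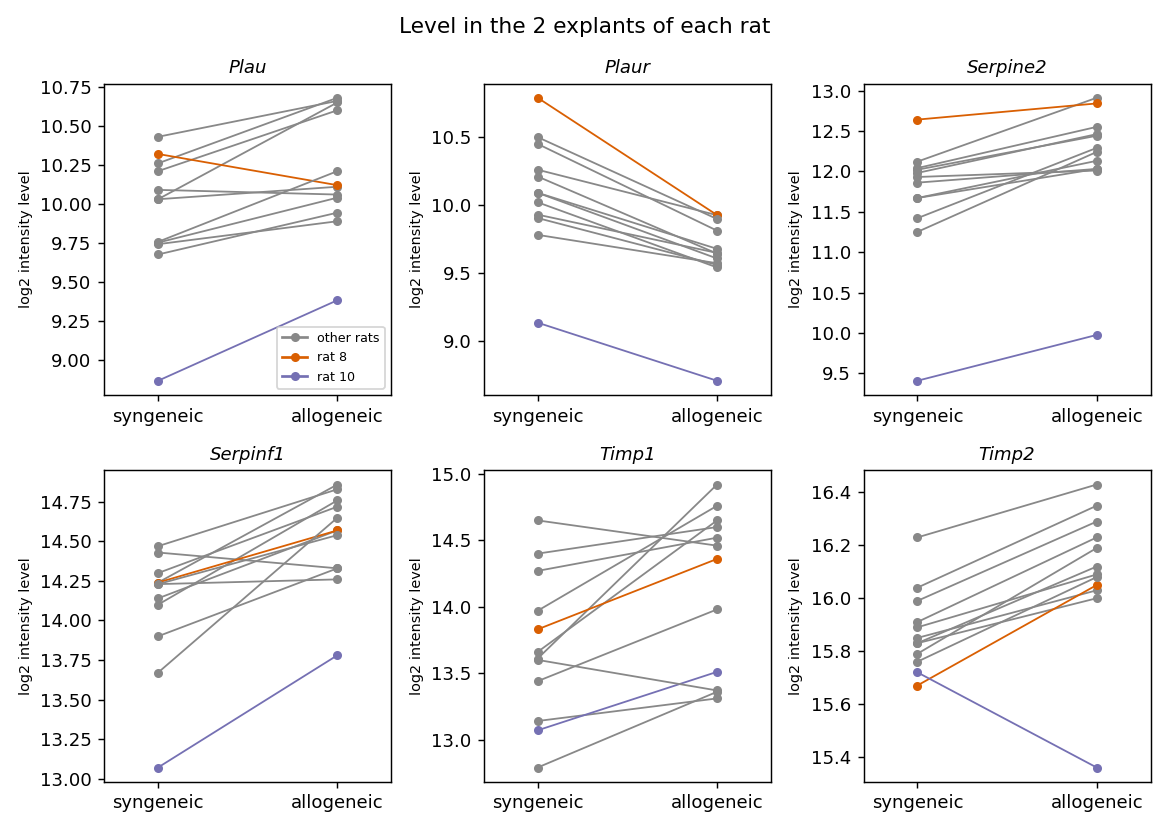
Log2 intensity level (y axis) of 6 genes in the syngeneic and the allogeneic explant of each rat (x axis), with 1 line per rat. All 12 lines fall for *Plaur* and rise for *Serpine2*, 11 rise for *Serpinf1* and *Timp2* and 10 for *Timp1* and *Plau*, and rat 10 starts lowest for *Plau*, *Plaur*, *Serpine2* and *Serpinf1*.

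Because urokinase and its receptor moved apart, the RefSeq sequences of the 250 bases before their transcription starts are shown (assembly GRCr8, 5' to 3' on the gene's strand). Capitals mark the AP-1 site (TGANTCA), the GC box (GGGCGG) and the TATA box (TATAAA) on either strand, and no marked stretch overlaps another.
Plau, chr15:3511988-3512237, minus strand: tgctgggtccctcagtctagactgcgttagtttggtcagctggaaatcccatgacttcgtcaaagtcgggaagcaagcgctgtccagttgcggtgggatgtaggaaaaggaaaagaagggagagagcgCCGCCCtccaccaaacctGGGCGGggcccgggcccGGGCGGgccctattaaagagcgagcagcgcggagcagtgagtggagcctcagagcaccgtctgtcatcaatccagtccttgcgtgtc
Plaur, chr1:89181113-89181362, plus strand: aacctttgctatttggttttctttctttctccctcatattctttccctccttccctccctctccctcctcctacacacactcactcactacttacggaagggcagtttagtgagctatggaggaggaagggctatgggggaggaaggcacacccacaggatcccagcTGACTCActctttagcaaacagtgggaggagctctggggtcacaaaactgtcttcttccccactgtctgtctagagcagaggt
The *Plau* window holds 3 GC boxes, of which the nearest begins 87 bases before the start, and the *Plaur* window holds 1 AP-1 site, whose first base lies 83 bases before the start. Of all 33469 windows of this length in the table, 30.5% hold a GC box, 6.34% an AP-1 site and 12.9% a TATA box. A window was found for 25 of the 36 genes, 8 of them among those that changed. The GC box was in 13 of these 25 genes (*Adam8*, *Cstb*, *Plau*, *Serpine2*, *Timp1* and *Timp2* among those that changed), the AP-1 site in 3 (*Plaur*, *Mmp20* and *Serpinb2*) and the TATA box in 5. These matches describe the letters of the windows only.

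Of the 6 serpins, *Serpine2* and *Serpinf1* rose. *Serpine2* encodes protease nexin 1, an inhibitor of thrombin, urokinase and plasmin. Its log2 ratio ran from 0.09 over 0.47 to 0.99, above 0 in 12 of 12 rats. The *Serpine2* level had a median of 12.26 in the allogeneic and 11.89 in the syngeneic samples, and the ranges of 9.98 to 12.91 and 9.41 to 12.64 overlapped. Both low ends came from rat 10, as they did for *Plau*, *Plaur* and *Serpinf1*. Without rat 10, the lowest *Serpine2* levels were 12.01 in the allogeneic and 11.25 in the syngeneic samples. The mean log2 ratio of *Serpine2* over 12 rats was 0.49 ± 0.28, a 1.41-fold ratio (adjusted p = 0.00105, limma).

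*Serpinf1* encodes pigment epithelium-derived factor, a serpin that inhibits no protease and is known as an inhibitor of angiogenesis. The log2 ratio ran from -0.10 in rat 3 over 0.43 to 0.98 in rat 9, above 0 in 11 of 12 rats, with levels of 13.78 to 14.86 in the allogeneic and 13.07 to 14.47 in the syngeneic samples. The mean was 0.43 ± 0.29, a 1.35-fold ratio (adjusted p = 0.00307, limma). The other 4 serpins had means between -0.03 and 0.06. Among them, *Serpinb2*, plasminogen activator inhibitor 2, had the largest SD of all 36 genes, with ratios from -0.97 in rat 10 over a median of -0.19 to 2.70 in rat 8 (-0.02 ± 0.95, 95% interval -0.58 to 0.53, adjusted p = 0.963, limma).

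Of the tissue inhibitors, *Timp1* and *Timp2* rose. *Timp1*, which is secreted and blocks most matrix metalloproteinases, had log2 ratios from -0.23 in rat 12 over 0.49 to 1.31 in rat 4, above 0 in 10 of 12 rats. Its level ran from 13.31 over 14.41 to 14.92 in the allogeneic samples and from 12.79 over 13.64 to 14.65 in the syngeneic samples. The mean of *Timp1* was 0.45 ± 0.45, a 1.36-fold ratio (adjusted p = 0.0243, limma). The call was lost without rat 1 (0.42, adjusted p = 0.0529, limma) and without rat 7 (0.40, adjusted p = 0.0508, limma), and with median centring in place of loess (0.35, adjusted p = 0.105, limma).

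*Timp2*, which also takes part in the activation of pro-MMP2 at the cell surface, had log2 ratios from -0.36 in rat 10 over 0.30 to 0.41 in rat 4, and rat 10 was the only rat below 0. The mean was 0.23 ± 0.20, a 1.17-fold ratio (adjusted p = 0.0141, limma). However, the ratio of *Timp2* was 0.45 with the allogeneic sample in Cy5 and 0.00491 with it in Cy3 (adjusted p of the difference = 0.000807, limma), and it was 0.05 with median centring (adjusted p = 0.785, limma). *Timp3*, which binds to the matrix and also inhibits ADAM17, had log2 ratios from -0.21 over 0.00435 to 0.27 and a mean of 0.01 ± 0.12 with a 95% interval from -0.06 to 0.09 (adjusted p = 0.848, limma). Its means by orientation were -0.10 and 0.13.

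Partner pairs were compared across rats where both genes are on the array. For urokinase and its receptor, Pearson's r of the log2 ratios was 0.50 (permutation p = 0.0972, adjusted p = 0.194) and Spearman's rho 0.31 (permutation p = 0.333, adjusted p = 0.665) over 12 rats, adjusted over the 2 pairs given here. Without rats 8 and 4, whose *Plau* ratios lay farthest from the median, r was -0.08 (permutation p = 0.820). The signs of the *Plau* and *Plaur* ratios were alike in 2 of 12 rats. This count follows from the signs given above for each gene and adds nothing on their correlation. For *Adam17* and its inhibitor *Timp3*, r was -0.39 (permutation p = 0.221, adjusted p = 0.221) and rho -0.13 (permutation p = 0.680, adjusted p = 0.680), and r was -0.13 without rats 8 and 10 (permutation p = 0.701). A slide held 4 rats, too few for a value of its own, and with the mean of each slide subtracted r was 0.41 for *Plau* and *Plaur* (exact permutation within slides, p = 0.239, adjusted p = 0.478) and -0.41 for *Adam17* and *Timp3* (exact permutation within slides, p = 0.671, adjusted p = 0.671). With processed intensities r was 0.69 for *Plau* and *Plaur* (permutation, adjusted p = 0.0631) and -0.61 for *Adam17* and *Timp3* (permutation, adjusted p = 0.0708). Neither pair passed the threshold in any of these settings.

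Of the 7 matrix metalloproteinases, 1 changed. On the array, this family consists of *Mmp1b*, *Mmp16*, *Mmp19*, *Mmp20*, *Mmp21*, *Mmp25* and *Mmp27*, and the gelatinases, stromelysins and the other well known members were not analysed here. *Mmp16*, a membrane-bound metalloproteinase, had log2 ratios from -0.05 over 0.33 to 0.76, above 0 in 9 of 12 rats. Its level ran from 7.26 to 8.15 in the allogeneic and from 6.92 to 7.70 in the syngeneic samples. The mean of *Mmp16* was 0.30 ± 0.27, a 1.23-fold ratio (adjusted p = 0.0156, limma), which was 0.48 with plain background subtraction, 0.48 in the series table and 0.59 with processed intensities. By the exact signed-rank test the call for this gene was lost (adjusted p = 0.0731).

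*Mmp27* lay on the threshold, with log2 ratios from -0.13 over 0.19 to 0.53 and a mean of 0.20 ± 0.23 (adjusted p = 0.0497 by its probe and 0.0518 by the gene, limma). It had 0.33 with the allogeneic sample in Cy5 and 0.07 with it in Cy3. The other 5 metalloproteinases had means between -0.06 and 0.02. Among them, *Mmp20* and *Mmp21* stood well above background on only 1 and 2 arrays in each channel, so that no change was detectable for these genes.

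**Figure D3:**
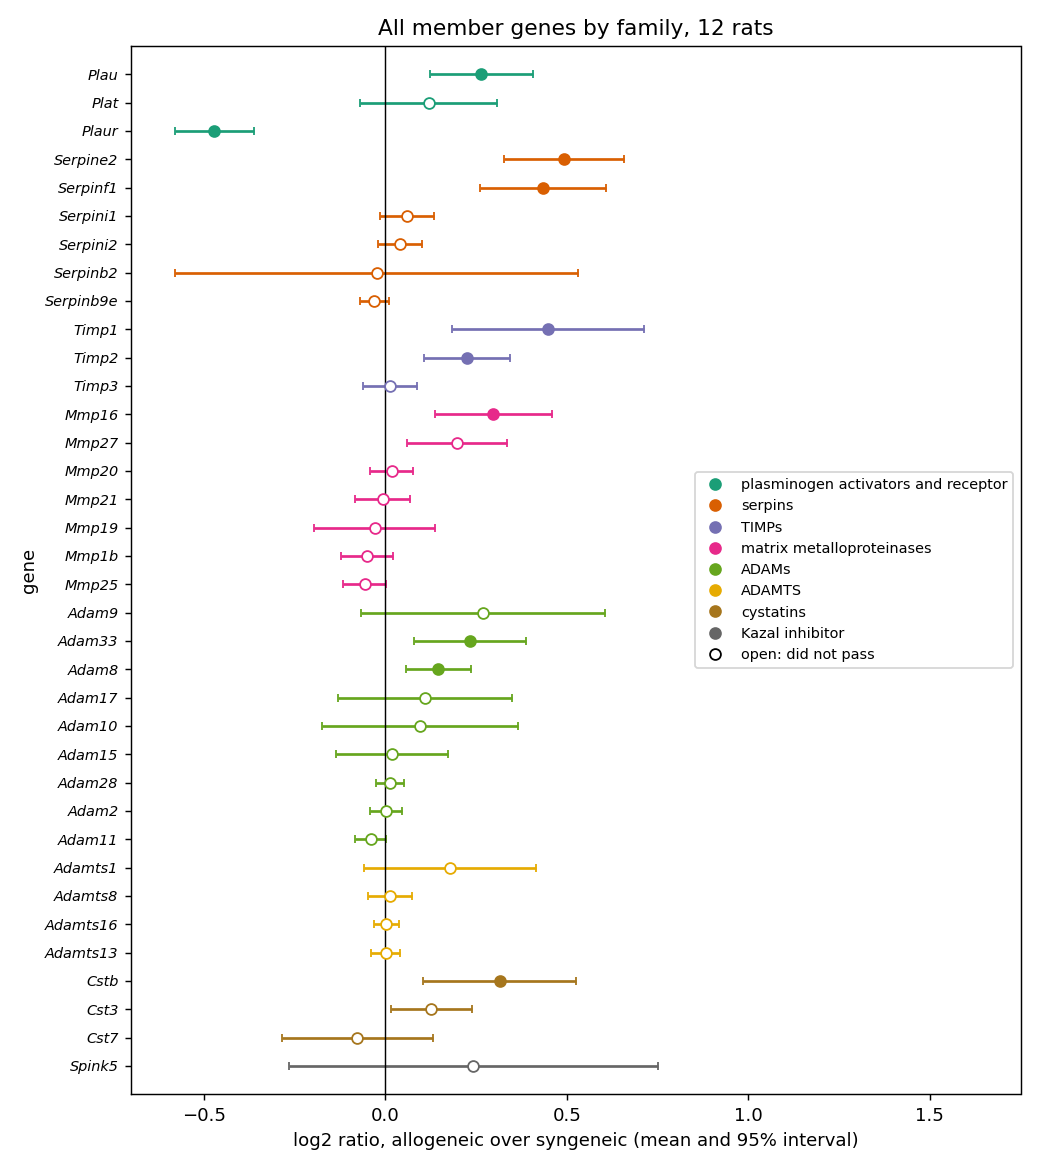
Mean log2 ratio of the allogeneic over the syngeneic sample with its 95% interval (x axis) for all 36 genes (y axis), colored by family, with filled points for the 10 genes that changed. The filled points lie among the serpins, the TIMPs, *Plau*, *Plaur*, *Mmp16*, *Adam33*, *Adam8* and *Cstb*, and *Serpinb2*, *Spink5* and *Adam9* have the widest intervals.

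Among the 9 ADAMs, *Adam33* and *Adam8* rose by small amounts. *Adam33*, a membrane-bound metalloprotease of mesenchymal cells, had log2 ratios from -0.15 in rat 1 over 0.16 to 0.82 in rat 8, above 0 in 10 of 12 rats (0.23 ± 0.26, adjusted p = 0.0406, limma). *Adam8*, a metalloprotease found on leukocytes, had log2 ratios from -0.08 over 0.16 to 0.45, highest in rat 8 and above 0 in 9 of 12 rats (0.15 ± 0.15, adjusted p = 0.0292, limma). Its means were 0.23 and 0.07 in the Cy5 and Cy3 orientation (adjusted p of the difference = 0.00242, limma). These calls were not firm. That of *Adam33* was lost when any of 9 rats was left out (adjusted p up to 0.0823, limma) and that of *Adam8* when any of rats 1 to 6 was (adjusted p up to 0.0610, limma), whereas both were kept without rats 8 and 10.

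The sheddases *Adam10* and *Adam17* gave no call. The log2 ratio of *Adam17*, which releases tumor necrosis factor from the cell surface, ran from -0.18 over a median of -0.00333 to 1.33 in rat 8 (0.11 ± 0.41, 95% interval -0.13 to 0.35, adjusted p = 0.557, limma). *Adam17* also had the largest difference between orientations of the 36 genes, with -0.21 and 0.43 (adjusted p of the difference = 9.86e-07, limma). The log2 ratio of *Adam10*, an enzyme that cleaves Notch and cadherins, ran from -0.18 over 0.02 to 1.52 in rat 8 (0.10 ± 0.46, 95% interval -0.17 to 0.37, adjusted p = 0.659, limma), and its 2 probes gave 0.15 and 0.04. Without rats 8 and 10, the means turned to -0.03 for *Adam17* and -0.04 for *Adam10*. The other 5 ADAMs lay between -0.04 and 0.27 and the 4 ADAMTS genes between 0.00163 and 0.18. The upper ends were *Adam9* and *Adamts1*, which reached 2.03 and 1.31 in rat 8, with medians of 0.10 and 0.11.

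Of the cystatins, *Cstb* rose. This gene, whose product is an intracellular inhibitor of cathepsins, had log2 ratios from -0.11 over 0.28 to 1.23 in rat 8, above 0 in 10 of 12 rats (0.32 ± 0.36, a 1.24-fold ratio, adjusted p = 0.0433, limma). Its value was 0.23 without rat 8 (adjusted p = 0.0165, limma), and the call was lost without any of 9 other rats (adjusted p up to 0.0918, limma) and with median centring (0.18, adjusted p = 0.105, limma). *Cst3*, the secreted cystatin C, had log2 ratios from -0.22 over 0.14 to 0.37 and a mean of 0.13 ± 0.19 (95% interval 0.02 to 0.24, adjusted p = 0.118, limma). Its 3 probes gave 0.13, 0.13 and 0.12, but they overlap one another on the assembly and are not independent measurements. The orientations gave -0.04 and 0.30 for *Cst3* (adjusted p of the difference = 0.000537, limma). *Cst7*, a cystatin of immune cells, had log2 ratios from -0.69 in rat 12 over -0.02 to 0.54 in rat 4, with slide means of 0.24, -0.05 and -0.42 and an overall mean of -0.08 ± 0.35 (adjusted p = 0.645, limma).

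*Spink5*, an inhibitor of the kallikreins of the outer epidermis, had levels from 14.09 to 15.93 in the allogeneic samples. Its log2 ratios ran from -0.85 in rat 10 over 0.10 to 2.83 in rat 8. The mean was 0.24 ± 0.87 (95% interval -0.27 to 0.75, adjusted p = 0.541, limma).

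Rat 8 held 10 of the highest and 8 of the lowest values of the 36 genes, and 7 of its log2 ratios were above 1 (*Spink5*, *Serpinb2*, *Adam9*, *Adam10*, *Adam17*, *Adamts1* and *Cstb*). In the other rats 1 ratio was above 1, that of *Timp1* in rat 4. The median log2 ratio of the keratinocyte markers in rat 8 was 1.06, where the other rats had -0.16 to 0.55. Of the 13 gene lists compared in this way, rat 8 was also above the other rats for matrix substrates (0.64, other rats 0.04 to 0.29) and fibroblast markers (0.91, other rats up to 0.86) and below them for skeletal muscle (-0.86, other rats from -0.84) and neutrophil markers (-0.09, other rats from -0.07). The part of these differences in the values of rat 8 was not tested, and the lists of matrix substrates and fibroblast markers share *Postn* and *Col1a2*. Of the 9 genes that rose, 6 to 9 were above 0 in each of the 12 rats, and 8 in rat 8. These genes were picked for a mean above 0 in the same rats, so that the count is no separate evidence of agreement between rats.

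**Figure D4:**
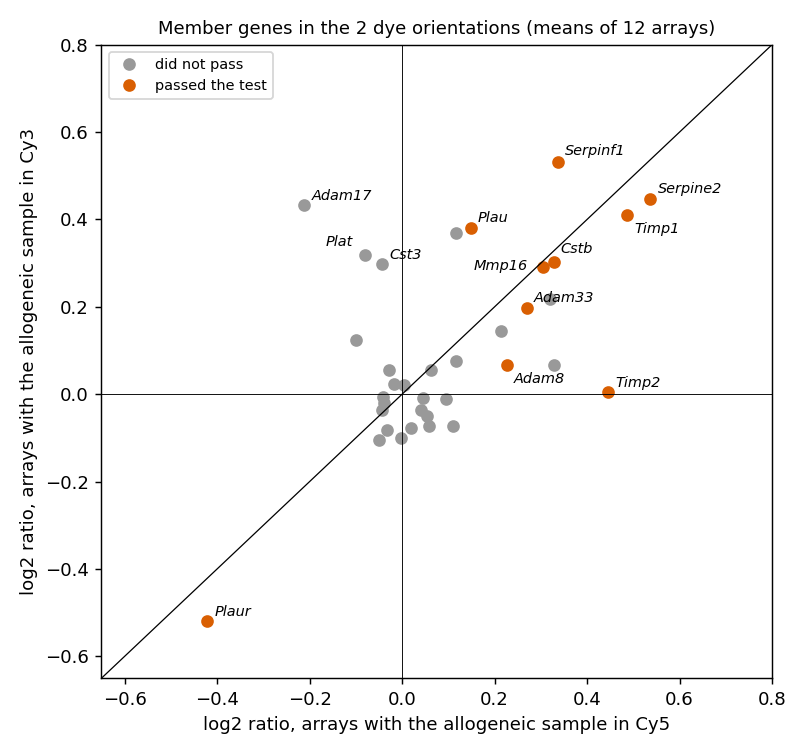
Mean log2 ratio over 12 arrays that carried allogeneic RNA in Cy3 (y axis) against that over 12 arrays that carried it in Cy5 (x axis) for the 36 genes, with the line of equal values. *Serpine2*, *Timp1* and *Plaur* lie near the line, *Timp2* lies at 0.45 and 0.00491, and *Adam17*, *Plat* and *Cst3* have opposite signs in the 2 orientations.

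Genes around the system were read from lists, to be set beside the 8.66% of all genes that were higher and the 7.6% that were lower. Of 20 other proteases and inhibitors on the array, 6 rose and 1 fell, with a median log2 ratio of 0.06. The 5 with the largest changes were *Pcsk1*, a proprotein convertase (-0.82 ± 0.46, adjusted p = 0.000885, limma, below 0 in 12 of 12 rats), the membrane peptidase *Mme* (0.65 ± 0.69, adjusted p = 0.0299, limma), the general protease inhibitor *A2m* (0.63 ± 0.49, adjusted p = 0.00658, limma), carboxypeptidase E (*Cpe*, 0.55 ± 0.40, adjusted p = 0.00437, limma) and the secreted serine protease *Htra1* (0.48 ± 0.19, adjusted p = 0.000136, limma). Plasminogen itself (*Plg*), named here after its value was seen, had a log2 ratio of 0.000849 ± 0.06. Its signal over background is not given here, so this ratio near 0 does not show that the gene was detected and unchanged. Of 25 regulators and binding partners of plasmin and metalloproteinases, 11 rose and 1 fell, with a median of 0.19. The largest were the collagen crosslinking enzyme *Lox* (0.75 ± 0.65, adjusted p = 0.0118, limma), the TGF-beta induced matrix protein *Tgfbi* (0.53 ± 0.26, adjusted p = 0.000388, limma), the transcription factor *Egr1* (0.49 ± 0.21, adjusted p = 0.000169, limma), *Ctgf* (0.46 ± 0.28, adjusted p = 0.00139, limma), which encodes a matricellular growth factor, and *Igfbp5* (0.38 ± 0.33, adjusted p = 0.0133, limma), a binding protein of insulin-like growth factors. Of 9 matrix substrates, 4 rose and 1 fell, with a median of 0.10, but their summed intensity was higher in the allogeneic sample in 4 of 12 rats (18300 to 143100 in the allogeneic and 30300 to 207000 in the syngeneic samples).

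Markers of several cell types also differed between the samples, in both directions. Of 5 fibroblast markers on the array, 3 rose and 0 fell (median 0.43), and their summed intensity, 8409 to 40820 in the allogeneic and 5738 to 27040 in the syngeneic samples, was higher in the allogeneic sample in 12 of 12 rats. *Postn* and *Col1a2*, which both rose, are in this list and in that of the matrix substrates. Of 5 keratinocyte markers, 2 rose and 0 fell (median 0.30, summed 100600 to 205200 and 45690 to 155800, higher in 12 of 12 rats). Of 11 macrophage and monocyte markers, 7 fell and 0 rose (median -0.60, summed 29360 to 79610 and 67380 to 174200, higher in 0 of 12 rats). Of 13 T cell markers 6 fell and 0 rose (median -0.26, summed 4284 to 12380 and 4776 to 14880), and of 7 NK cell markers 3 fell and 0 rose (median -0.09, summed 1740 to 2352 and 1847 to 3135). For endothelial cells 2 of 8 rose and for skeletal muscle 1 of 3 rose, with 0 that fell in either, and 0 of 6 B cell, 0 of 6 neutrophil and 0 of 3 mast cell markers changed by limma, of which 1, 0 and 0 had an unadjusted p below 0.05. No marker on the array was below background on every array, but this says little about detection. On the bright array of rat 10, 99.68% of spots in Cy3 and 99.91% in Cy5 stood well above background. The part of these cell types in the changes of *Plaur*, the serpins, the TIMPs and the other genes was not tested.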

How the data were processed

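Custom Agilent two-color arrays were measured for 12 rats, 2 dye-swapped arrays each. The intensities of spots and local background in Cy3 and Cy5 had been extracted per the file headers by Feature Extraction 9.5.1.1 and were deposited by the authors without normalization. The authors also deposited processed intensities and a series table of log2 ratios, which agreed in direction with allogeneic over syngeneic on every array. Its background treatment was not given in the sources used here. The amplification kit differs between labels and methods.

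In R 4.3.3 with limma 3.58.1, intensities were background-corrected (normexp, offset 50, which draws ratios of dim probes towards 0) and loess-normalized within arrays, with 0 weight for control and outlier spots, which were then left out. Swapped arrays were turned, spots were averaged per probe and the 2 arrays per rat, and 12 rats were tested against 0, adjusted over 8453 probes or 7263 gene names (probes averaged by name, annotation suffixes removed). The test is within rats, whose 2 samples share an array. Levels are log2 intensities after Aquantile normalization, and single levels are compared only within a gene. Summed intensities add these levels, turned back from log2, over all probes of a list, so that the brightest probes weigh most. Correlations used 100000 permutations. Precision is limited by the number of rats, 12, since the 2 arrays of a rat are averaged. Simulated data with known changes were used to test the scripts. Alternatives concerned background, normalization, spots, dim probes, dye orientation, slide, test, probe choice, the series table and leaving out rats, and those without rats 8 and 10 together, without the bright array of rat 10 or with slide means subtracted were added after the data were seen. Mixed-effects ANOVA used a closed form for probes and genes with complete values and lmerTest 3.1.3 for the others.

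The members and lists were chosen with earlier results of these data known. Named were all genes that changed, the TIMPs, plasminogen activators, *Serpine2*, *Serpinf1*, *Adam10*, *Adam17*, *Cst3*, *Cstb* and further well known members where on the array, and of the protease and regulator lists the 5 with the largest change. Other genes named were chosen after their values were seen. The lists were other proteases and inhibitors, regulators and binding partners, matrix substrates, and markers of keratinocytes, fibroblasts, endothelial cells, macrophages and monocytes, neutrophils, mast cells, T cells, B cells, NK cells and skeletal muscle. Of the genes that match the rule for members, 1 is not reported here and is left out of all counts of members, but it stayed in the fit. Promoter sequences are from RefSeq.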

Additional observations from a re-analysis of the deposited data

How the results depend on the processing

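Under the 16 alternatives the number of the 36 genes that changed lay between 8 and 13, and the number of probes between 8 and 16 under the 15 that apply to probes. Of all genes, 956 changed with median centring, the fewest, and 2194 in the Cy5 orientation alone, the most. When each rat was left out in turn, 7 to 11 genes and 7 to 13 probes changed, with 7 probes without rat 1. Of all genes, between 936 (without rat 9) and 1746 (without rat 8) then changed. *Plaur*, *Serpine2* and *Serpinf1* kept their direction and their call in all these alternatives and without any 1 rat. With 24 arrays and the rat as a replicate block, 10 genes and 12 probes changed, where 1411 of all 7263 genes did. Of the 10 genes, 9 were shared, since *Adam33* was lost (adjusted p = 0.0658, limma) and *Mmp27* gained (adjusted p = 0.0273, limma). Mixed-effects ANOVA lost *Adam33* (adjusted p = 0.0595) and *Cstb* (0.0644), the slide as a block lost *Cstb* (0.0591), and the exact signed-rank test lost *Mmp16* (0.0731) and *Timp2* (0.0881). In the Cy5 orientation alone the log2 ratios of *Adam17* (-0.21), *Cst3* (-0.0433), *Plat* (-0.0802) and *Timp3* (-0.10) turned, whereas in the Cy3 orientation alone these genes were called (*Adam17* 0.43, adjusted p = 0.0117, *Cst3* 0.30, 0.000477, *Plat* 0.32, 0.0144, *Timp3* 0.13, 0.0402, limma) and *Timp2*, *Adam8* and *Adam33* were not. In the Cy5 orientation 9 of the 36 genes changed, 8 of them shared with the 12-rat result, where 2194 of all 7263 did, and in the Cy3 orientation 13 changed, 10 higher and 3 lower and 7 of them shared, where 2086 of all did. Without rats 8 and 10 those of *Adam10* (-0.0441) and *Adam17* (-0.0281) turned. Without 1 rat, *Adam10* ranged from -0.033 to 0.12 and *Adam17* from -0.00106 to 0.14, both lowest without rat 8, and *Timp3* from -0.0105 to 0.0331, lowest without rat 6. *Cst3* was called without the bright array of rat 10 (0.17, adjusted p = 0.0166, limma). The causes were not tested. Low signal over background limits what can be seen for 7 of the 36 genes.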
